A study of Mus musculus with 29 samples.

Results

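Carbonic anhydrases are zinc enzymes that turn carbon dioxide and water into bicarbonate and a proton, and back. In the liver they supply bicarbonate to mitochondrial and cytosolic enzymes, and in the bile ducts they take part in making bicarbonate-rich bile. Some act in the cytosol, some in mitochondria and some on the outer face of the membrane, and a few family members have lost the catalytic activity. Car3, a cytosolic form with low hydratase activity, is known as an abundant protein of hepatocytes, fat cells and slow muscle in rodents.

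The 6 genes described here are Car1, Car2, Car3, Car5a, Car8 and Car14, out of 22180 genes that had an array row of their own. They were selected by the measured course of Car3, which was low early after bile duct ligation and higher later, so the levels of Car3 are a description and carry no test. Of the 6 genes, 4 had a row of their own (Car1, Car2, Car3 and Car8), and all 4 passed the filter on low values, a log2 value over 5 in at least 3 arrays, as did 14699 genes in all. The other 2, Car5a and Car14, lay only in rows that the annotation assigns to more than 1 gene, so no value can be given as theirs alone.

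RNA of whole livers from male wild-type C57BL/6N mice (titled wt), 8 to 10 weeks old and on a standard diet, was measured on 29 Affymetrix arrays, 1 array per mouse as far as the labels tell; replicate numbers used here follow the order of deposit and only name an array. In the ligated mice (BDL) the extrahepatic common bile duct was closed, which stops bile flow to the gut, and the controls had a sham operation. Sham livers were taken at day 1 (3 arrays), day 3 (2 arrays) and day 7 (4 arrays), and BDL livers at days 1, 3, 7 and 21 (5 arrays each). No day 21 sham group was analysed here, so BDL at day 21 was set against sham at day 7, where time after surgery and ligation cannot be told apart, and that comparison shares its 4 sham arrays with the day 7 comparison. All values are log2 array levels, which can be compared between groups for 1 gene but not between genes. Array medians lay between 4.90 and 5.13. At day 1, sham replicates 1 and 3 and BDL replicates 2 and 3 had a narrower spread of values over all genes (SD 1.55 to 1.58, against 1.64 to 1.70 in the other 25 arrays), and the day 1 results are therefore given within each set as well. Leaving out these 4 arrays leaves sham day 1 with 1 array, and leaving out either sham array of day 3 does the same there; that lone array is then assumed to vary like the other groups.

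The livers carried the markers of their label: the mean log2 level of 10 hepatocyte genes lay between 11.88 and 12.20 in every array. In whole tissue, fewer cells of a type and less RNA per cell cannot be told apart.

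Car3 (row 17396152) was lower in every BDL liver than in any sham liver, by far the most at days 1 and 3. The sham arrays read 12.26, 12.36 and 11.60 at day 1, 11.56 and 12.98 at day 3, and 12.14, 12.76, 12.74 and 13.28 at day 7. The BDL arrays read 7.10, 6.21, 5.88, 6.30 and 7.42 at day 1 and 6.95, 9.52, 5.14, 4.85 and 5.04 at day 3. Through day 3, then, even the highest ligated liver lay below the lowest sham liver. At day 7 the BDL arrays read 11.20, 10.42, 11.53, 10.55 and 9.81, and at day 21 they read 8.73, 9.36, 7.90, 10.61 and 10.26. Every day 7 array lay above every day 3 array, yet each was still below the lowest sham array.

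**Figure D1:**
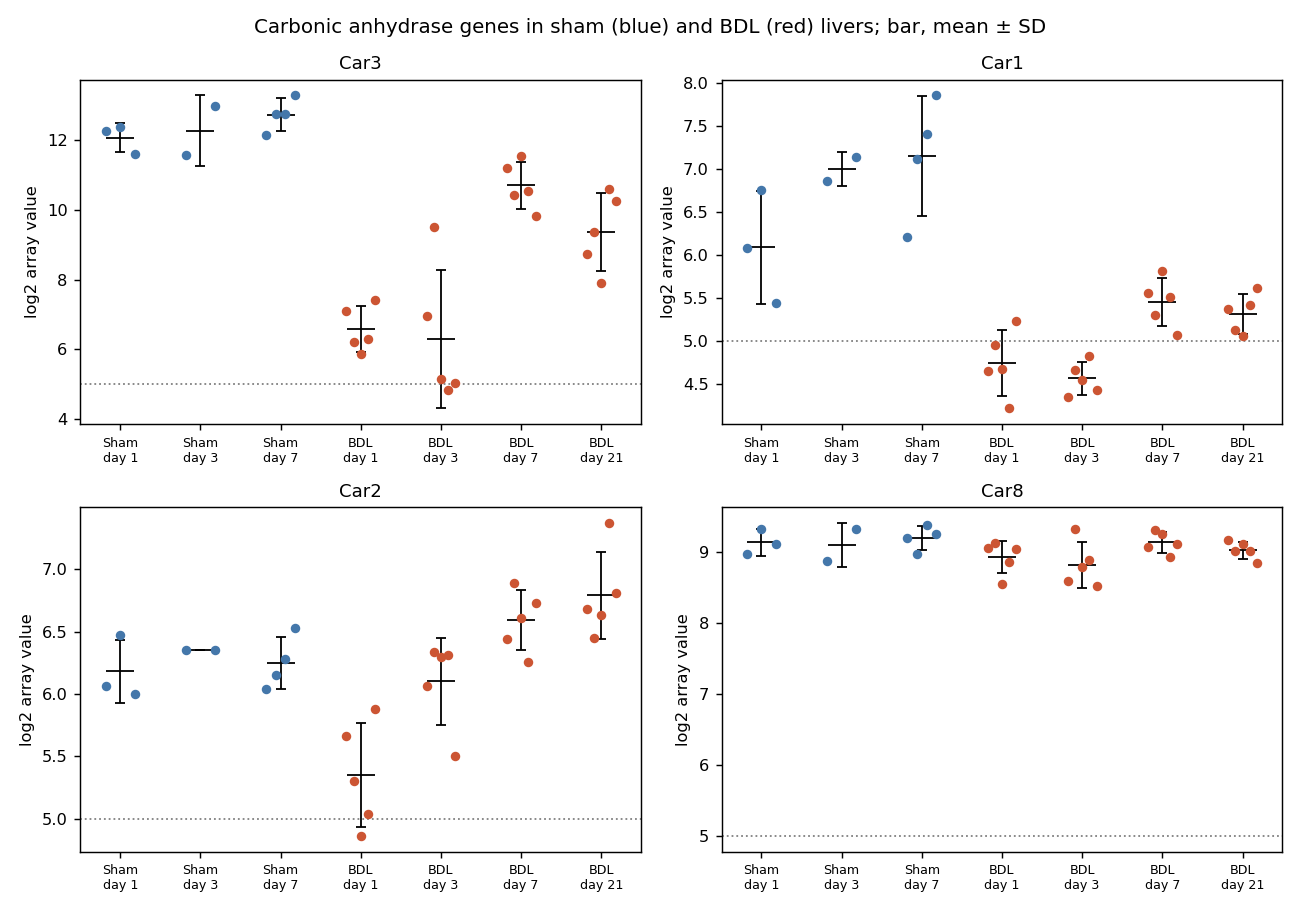
Log2 array values of Car3, Car1, Car2 and Car8 in each liver, by group; points are arrays (blue sham, red BDL), bars are the group mean ± SD, and the dotted line is the filter level of 5. Car3 sits at 11.56 or more in all sham arrays and at 9.52 or less in all BDL arrays of days 1 and 3, while the Car8 groups overlap throughout.

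The group means of Car3 were 12.07 ± 0.41 (SD, n = 3), 12.27 ± 1.01 (n = 2) and 12.73 ± 0.47 (n = 4) in sham livers at days 1, 3 and 7. In BDL livers they were 6.58 ± 0.65 at day 1, 6.30 ± 1.99 at day 3, 10.70 ± 0.67 at day 7 and 9.37 ± 1.11 at day 21 (n = 5 each). BDL minus sham was -5.49 ± 0.71 (SE) at day 1, a 45.0-fold lower level, and -5.97 ± 0.82 at day 3, a 62.5-fold lower level. At day 7 the difference was -2.03 ± 0.66, or 4.08-fold, and BDL at day 21 minus sham at day 7 gave -3.36 ± 0.66, or 10.3-fold. Of the BDL arrays of day 3, 3 read 4.85 to 5.14, about the filter level of 5 under which a value is not told apart from background, so the day 3 fold depends on the background and is not exact. The closest sham and BDL arrays were 4.18 log2 units apart at day 1, 2.03 at day 3, 0.61 at day 7 and 1.53 for day 21. Ordered from the lowest difference up, Car3 stood at rank 2 of the 14699 genes tested at days 1 and 3, at 17 at day 7 and at 12 at day 21. Car3 was chosen for its course over these groups, so the ranks come with the choice and are no separate result.

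Between successive BDL days the step of Car3 from day 3 to day 7 was 4.40 ± 0.62 (21.1-fold). It was the largest positive step among the 14699 genes tested, each by its row of highest mean. The later rise was part of why Car3 was chosen, so this place is no separate result either. The steps from day 1 to day 3 (-0.28 ± 0.62) and from day 7 to day 21 (-1.33 ± 0.62) joined groups whose arrays overlap. Ordered by mean, the groups ran from sham day 7 through sham day 3, sham day 1, BDL day 7, BDL day 21 and BDL day 1 to BDL day 3. Only 2 neighbouring pairs in that order did not overlap: sham day 1 and BDL day 7, whose nearest arrays were 0.08 apart, and BDL day 21 and BDL day 1, which were 0.48 apart.

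The spread of Car3 was not the same in all groups, with group SDs from 0.41 to 1.99. The SEs of its differences use 1 spread estimated over all groups (residual SD 1.09), so they do not follow these SDs. BDL day 3 was the widest, with replicate 2 at 9.52 and the other 4 arrays at 4.85 to 6.95. Without that array the day 3 difference was -6.77, and the step from BDL day 3 to BDL day 7 was 5.20. The sham group at day 3 has 2 arrays that differ by more than a log2 unit, and the difference was -6.68 without replicate 1 and -5.25 without replicate 2. At day 1 the difference was -5.89 within the low-spread set (2 BDL and 2 sham arrays) and -5.42 within the others (3 and 1).

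A further row assigned to Car3 alone (row 17404191) gave lower values with the same order of sham over BDL. It read 9.48, 9.85 and 8.75 in sham at day 1, 9.28 and 10.51 at day 3, and 9.17, 10.40, 9.71 and 10.69 at day 7. In BDL livers it ran from 3.55 to 4.86 at day 1, from 3.68 to 6.81 at day 3, from 6.37 to 8.06 at day 7 and from 5.76 to 7.61 at day 21. BDL minus sham on this row was -5.18 ± 0.54, -5.40 ± 0.62, -2.79 ± 0.50 and -3.40 ± 0.50 at days 1, 3, 7 and 21. Its step from BDL day 3 to day 7 was 2.70 ± 0.47 (6.51-fold), smaller than the step of the row above, and here the arrays of both days overlap. Its BDL means at days 1 and 3, 4.18 and 4.50, lie under the filter level, so the sizes there, and the step from day 3, depend on the background too. Replicate 2 of BDL day 3 was again the highest of its group, at 6.81.

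Fat and muscle also hold Car3, so their markers were read in the same arrays. Of 9 adipocyte genes 8 had a row of their own and 6 passed the filter, and their mean level ranged from 5.89 to 6.76 in sham and from 5.81 to 6.82 in BDL arrays. Adipoq and Lep, which define fat cells, were under 5 on average in all 7 groups. Plin1, Cidec, Fabp4, Plin4 and Pck1 were above 5 in every group, and Retn only in sham at days 3 and 7. Over the 6 genes the median difference was 0.64 for sham day 3 minus sham day 7 and -0.52 for BDL minus sham at day 3. In the former, limma called 0 of 6, with 4 higher at an unadjusted p under 0.05. In limma's test 1 of the 6 was higher at day 1 (Cidec, a lipid droplet protein, by 1.62 ± 0.43, adjusted p = 0.0103) and 1 was lower at day 3 (Retn, the hormone resistin, by -1.07 ± 0.24, adjusted p = 0.00334). The Cidec call was lost without the low-spread arrays (adjusted p = 0.251) and the Retn call without sham day 3 replicate 2 or with all sham arrays as control (adjusted p up to 0.255). The adipocyte list had no call at day 7 (2 of 6 at an unadjusted p under 0.05) or at day 21 (0 of 6). Of all genes tested, 8.52% were called higher at day 1 and 3.69% lower at day 3. The part of fat cells in the Car3 values was not tested.

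All 10 skeletal muscle genes had a row, 8 passed the filter, and none of the 8 was called in any BDL against sham comparison in limma's test (1, 0, 0 and 1 at an unadjusted p under 0.05). Mylpf, Myh4 and Pvalb, markers of fast fibres, were under 5 in every group. Ckm, Acta1, Mb, Tnnt3 and Tnnc2 were above 5 on average in every group. Group means of Myh7, a slow fibre gene, ran from 4.98 at BDL day 1 to 5.63 at sham day 3. Those of Atp2a1 ran from 4.96 at BDL day 7 to 5.46 at sham day 3. The mean muscle level was 5.02 to 5.75 in sham arrays, and at BDL day 21 it was 6.53 in replicate 2 and 5.03 to 5.23 in the other 4 arrays. Car3 in that replicate was 9.36, the median of its group. The part of muscle in the Car3 values was not tested further.

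Car1, a cytosolic form best known from red blood cells (row 17404180), was lower in BDL livers at all times. The sham arrays read 6.08, 6.76 and 5.44 at day 1, 6.86 and 7.14 at day 3, and 6.21, 7.12, 7.41 and 7.86 at day 7. The BDL arrays read 4.65, 4.95, 4.67, 4.21 and 5.23 at day 1 and 4.34, 4.66, 4.54, 4.82 and 4.43 at day 3. All but 1 of these early values (5.23) lie under the filter level of 5, and none reaches the lowest sham array of its day. BDL arrays at day 7 read 5.56, 5.30, 5.81, 5.51 and 5.07, and at day 21 they read 5.37, 5.12, 5.05, 5.41 and 5.61, all above the filter level and all below the sham arrays of day 7.

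In limma's test Car1 fell at day 1 (-1.35 ± 0.27, adjusted p = 0.00101), day 3 (-2.45 ± 0.31, adjusted p = 5.15e-06) and day 7 (-1.70 ± 0.25, adjusted p = 1.12e-05), and was lower at BDL day 21 than at sham day 7 (-1.84 ± 0.25, adjusted p = 1.84e-06). Since the BDL means at days 1 and 3 are under the filter level, the sizes there depend on the background. Counted only from the sham mean down to that level, the fall was 2.14-fold at day 1 and 4.01-fold at day 3. These folds leave out sampling error and are not lower bounds. The 95% intervals of the differences were -1.91 to -0.8 at day 1 and -3.08 to -1.81 at day 3. The difference at day 7 did not differ detectably from that at day 1 (-0.34 ± 0.37, adjusted p = 0.698). Within the day 1 sets the difference was -0.96 in the low-spread arrays and -2.06 in the others.

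Car1 rose from BDL day 3 to BDL day 7 by 0.89 ± 0.23 (adjusted p = 0.0214), with no overlap between the groups. All 5 day 3 arrays are under the filter level, so the size of this rise depends on the background. Counted only from that level to the day 7 mean, the rise was 0.45 or 1.37-fold, with sampling error left out. That call was lost without BDL day 7 replicate 3 (0.80, adjusted p = 0.0694), BDL day 3 replicate 1 (0.84, adjusted p = 0.0570) or BDL day 3 replicate 5 (0.86, adjusted p = 0.0582). The sham level itself was lower at day 1 than at day 7 (-1.05 ± 0.28, adjusted p = 0.0358), a call lost without any of 5 of the 7 arrays (adjusted p up to 0.298) and at -0.39 (adjusted p = 0.897) without the low-spread arrays, where 1 sham array of day 1 is left. Those 5 were sham day 1 replicates 1 and 3 and sham day 7 replicates 2, 3 and 4.

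Red cell markers were read beside Car1. Of 12 erythroid genes only 4 had a row of their own, among them Epb42 and Gata1, which were under 5 in every group, and Klf1 and Slc4a1, which were tested. Neither passed limma's test in any BDL against sham comparison (1 at day 1 and 0 at the other days at an unadjusted p under 0.05). Their mean level over the 4 genes lay between 4.64 and 5.31 in every array, at or near the filter level. The part of red cells in the Car1 difference was not tested.

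Car2, the fast cytosolic form of many epithelia, bile duct cells and osteoclasts (row 17396162), took another course. The sham arrays read 6.06, 6.47 and 6.00 at day 1, 6.35 and 6.35 at day 3, and 6.04, 6.15, 6.28 and 6.53 at day 7. BDL arrays read 5.66, 5.30, 4.86, 5.04 and 5.88 at day 1, all below the sham arrays, and 6.06, 6.34, 6.30, 6.31 and 5.50 at day 3, where the highest is 0.01 below both sham arrays. At day 7 they read 6.44, 6.89, 6.61, 6.26 and 6.73, and at day 21 they read 6.68, 6.45, 6.63, 7.37 and 6.81. The later BDL values reach above the sham values, with some overlap on both days.

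Car2 fell at day 1 (-0.83 ± 0.22, adjusted p = 0.00966 in limma's test) and rose again from BDL day 1 to BDL day 3 by 0.75 ± 0.19 (adjusted p = 0.00633). The differences from sham at day 3 (-0.25 ± 0.25, adjusted p = 0.623) and day 7 (0.34 ± 0.20, adjusted p = 0.260, 95% interval -0.07 to 0.75) did not pass. BDL day 21 was above sham day 7 by 0.54 ± 0.20 (adjusted p = 0.0456). The effect of ligation at day 7 was higher than that at day 1 by 1.17 ± 0.29 (adjusted p = 0.0203), so the change of the effect itself passed the test.

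Several Car2 calls rested on single arrays. The day 1 call was lost without sham day 1 replicate 2 (adjusted p = 0.0513) and without the low-spread arrays (-0.94, adjusted p = 0.118), although the difference was -0.95 within the low-spread set and -0.94 within the others. The step from BDL day 1 to day 3 was 0.58 (adjusted p = 0.0549) with the low-spread arrays as a term. The day 21 call was lost without sham day 7 replicate 1, 2 or 3 or without BDL day 21 replicate 1, 4 or 5, with an adjusted p of up to 0.162.

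Bile duct cells and macrophages hold Car2 as well, and their markers moved in the same livers. Of 12 cholangiocyte genes 10 had a row and 9 were tested. At days 1, 3, 7 and 21, 2, 7, 9 and 9 of them were higher in BDL and 0 lower. Their median difference went from 0.20 through 0.99 and 1.02 to 1.38, against 0.02 to 0.03 over all genes. Of the genes tested, Epcam, Cftr and Tspan8 averaged under the filter level of 5 in every sham group. They could hardly be called lower, and the sizes of their differences depend on the background. The mean cholangiocyte level was 5.10 to 5.54 in sham arrays, 5.49 to 5.83 at BDL day 1, 5.93 to 6.37 at day 3, 6.18 to 6.49 at day 7 and 6.43 to 6.87 at day 21.

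All 12 macrophage genes were tested, and 5, 5, 11 and 12 were higher at days 1, 3, 7 and 21, with 1 lower at day 1. Among them Ly6c2 and Ccr2 averaged under the filter level of 5 in every sham group, with the same limit. For both lists, the shares of all genes tested that were called higher at these days were 8.52%, 6.47%, 14.2% and 17.3%. The mean macrophage level was 6.79 to 7.47 in sham arrays, 7.10 to 8.25 at BDL day 1 and 8.65 to 9.34 at BDL day 21. The part of either cell type in the Car2 values was not tested.

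Car8 lacks carbonic anhydrase activity and is known to bind the inositol trisphosphate receptor. Its row (17423121) read 8.97, 9.33 and 9.11 in sham at day 1, 8.88 and 9.32 at day 3, and 9.20, 8.98, 9.38 and 9.26 at day 7. In BDL livers it ran from 8.55 to 9.13 at day 1, 8.52 to 9.33 at day 3, 8.93 to 9.31 at day 7 and 8.85 to 9.17 at day 21. The groups overlap on every day.

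No Car8 difference from sham passed limma's test, with values of -0.21 ± 0.16 at day 1 (adjusted p = 0.431, 95% interval -0.53 to 0.11), -0.28 ± 0.18 at day 3 (adjusted p = 0.385, -0.64 to 0.09), -0.07 ± 0.14 at day 7 (adjusted p = 0.810, -0.36 to 0.23) and -0.17 ± 0.14 at day 21 (adjusted p = 0.434, -0.46 to 0.12). Against all 9 sham arrays pooled the day 3 difference was -0.33 (adjusted p = 0.0350). The lowest of these bounds, -0.64, is nearer to 0 than any of the Car1 differences from sham.

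Among the 3 members that could be tested, then, those called lower were 2 at day 1 (Car1 and Car2), 1 at day 3, 1 at day 7 and 1 at day 21 (Car1 each time), and the 1 called higher was Car2 at day 21. Over all genes tested limma called 4.8% lower and 8.52% higher at day 1, 3.69% lower and 6.47% higher at day 3, 4.97% lower and 14.2% higher at day 7, and 7.9% lower and 17.3% higher at day 21. From BDL day 1 to day 3 it called 12% higher and 6.44% lower (members: Car2 higher). From BDL day 3 to day 7 it called 4.6% higher and 1.1% lower (Car1 higher). In this step Car2 (0.49 ± 0.19, adjusted p = 0.130) and Car8 (0.31 ± 0.13, adjusted p = 0.187) did not pass. At an unadjusted p under 0.05 all 3 members were higher there, and the share of all genes at that level is not given here. From BDL day 7 to day 21 limma called 0.401% higher and 0.463% lower (0 of 3 members, also at an unadjusted p under 0.05). For the effect at day 7 minus that at day 1, 3.48% of genes were higher and 0.857% lower (Car2 higher). Sham day 1 against sham day 7 gave 1.15% higher and 2.96% lower (Car1 lower). Sham day 3 against sham day 7 gave 0% in either direction, with 276 genes higher and 351 lower at an unadjusted p under 0.05 (0 of 3 members).

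**Figure D2:**
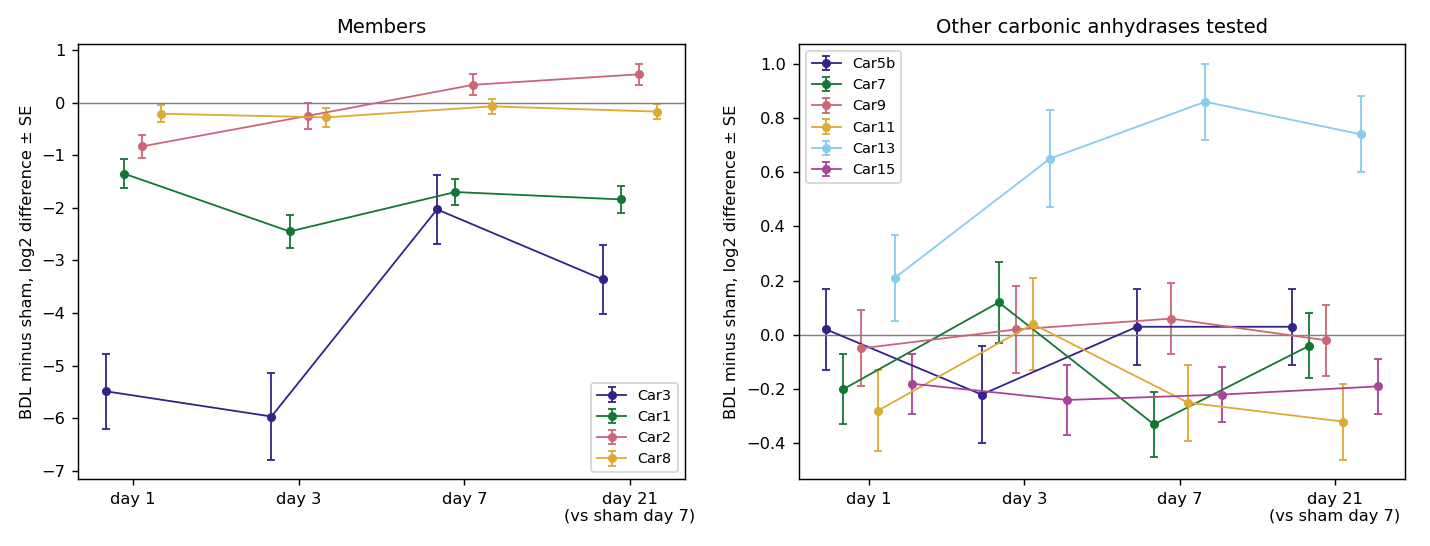
BDL minus sham on the log2 scale at each day, point and bar giving the difference ± SE; left, the 4 members with a row of their own, and right, the 6 other carbonic anhydrases tested (day 21 is set against sham day 7). Car3 reaches -5.97 at day 3 and -2.03 at day 7, Car2 goes from -0.83 to 0.54, and on the right Car13 rises to 0.86 at day 7.

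Car5a is the mitochondrial form of the liver, known to feed bicarbonate to urea synthesis and to pyruvate carboxylase. Its only row (17513655) is annotated to both Car5a and BC048644, so the signal can come from either. That row read 9.40, 9.43 and 9.33 in sham at day 1, 9.53 and 9.20 at day 3, and 9.07, 9.14, 9.51 and 9.60 at day 7. In BDL livers it read 8.89, 8.21, 7.74, 8.12 and 8.32 at day 1, and 8.78, 8.99, 7.93, 8.31 and 7.06 at day 3, below all sham arrays of the same day.

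At day 7 the row read 8.90, 9.07, 8.98, 8.85 and 8.66 and at day 21 8.57, 8.64, 8.73, 8.50 and 8.74. BDL minus sham was -1.13 ± 0.26 at day 1, -1.15 ± 0.30 at day 3, -0.44 ± 0.24 at day 7 and -0.70 ± 0.24 at day 21. No BDL array overlapped its sham group, although at day 7 the nearest arrays were 0.01 apart. From BDL day 3 to day 7 the row's step was 0.68 ± 0.23, with overlap.

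Car14, a membrane-bound form with its active site outside the cell, shares row 17407956 with Aph1a, a subunit of the gamma-secretase complex. In sham livers that row read 8.53, 8.66 and 7.98 at day 1, 8.48 and 8.38 at day 3, and 8.60, 8.50, 8.57 and 9.01 at day 7. In BDL livers it ran from 7.74 to 8.68 at day 1, 8.06 to 9.51 at day 3, 8.27 to 8.93 at day 7 and 7.95 to 8.29 at day 21. BDL minus sham was -0.05 ± 0.24, 0.31 ± 0.27 and -0.04 ± 0.22 at days 1, 3 and 7, with overlap each time, and -0.55 ± 0.22 at day 21, without overlap.

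**Figure D3:**
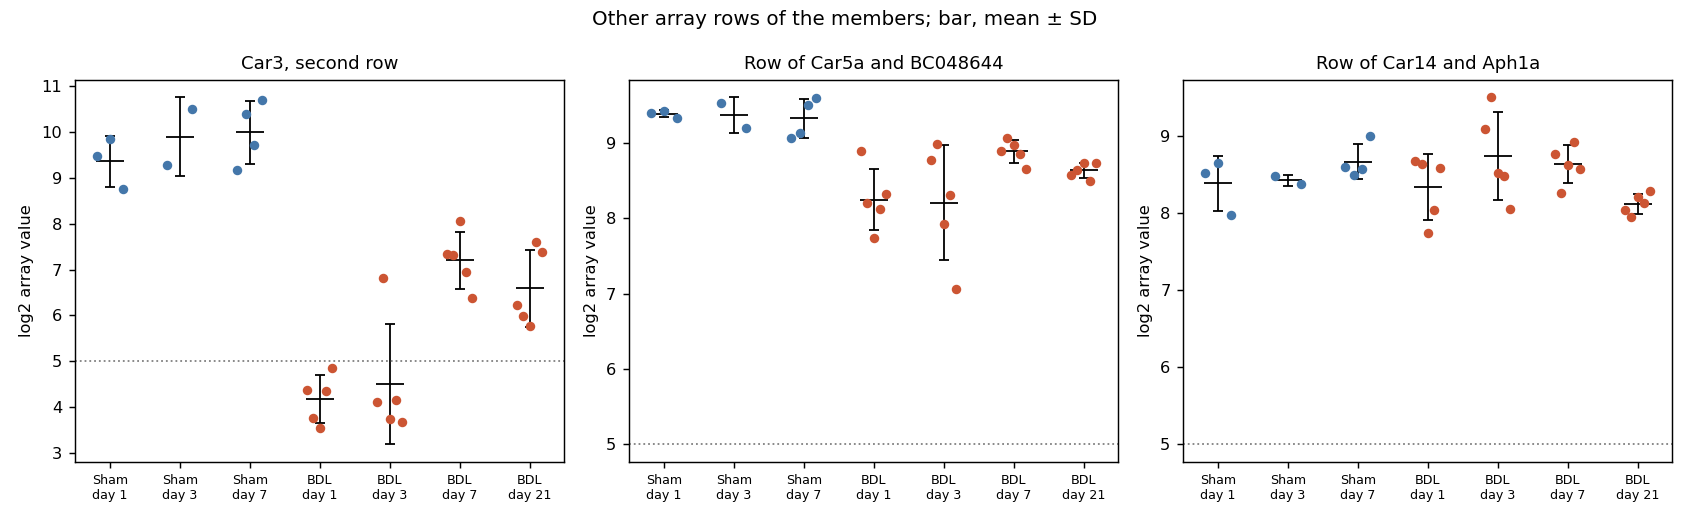
Log2 values by array of the further Car3 row and of the rows shared by Car5a with BC048644 and by Car14 with Aph1a; points are arrays (blue sham, red BDL), bars the mean ± SD, and the dotted line the filter level of 5. The row shared by Car5a and BC048644 has its lowest BDL means at days 1 and 3 (8.25 and 8.21), while the row shared by Car14 and Aph1a is lowest at BDL day 21 (8.12).

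Outside the 6 genes, 10 further carbonic anhydrases had a row of their own, and 6 passed the filter: Car5b, Car7, Car9, Car11, Car13 and Car15. Car4, Car6, Car10 and Car12 did not and were not tested. Of the 6 tested, 1 was called higher at days 3, 7 and 21 and none was called at day 1 in limma's test (0 of 6 at an unadjusted p under 0.05). At that unadjusted level 1 was higher on each of the later days, and 0, 2 and 1 were lower at days 3, 7 and 21. Car7 at day 7 came nearest to a call (-0.33 ± 0.12, adjusted p = 0.0555), with all BDL arrays below the sham arrays. Of all genes tested, 6.47%, 14.2% and 17.3% were called higher at days 3, 7 and 21. The median differences were -0.11, 0.03, -0.09 and -0.03 at days 1, 3, 7 and 21, against 0.02 to 0.03 over all genes.

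The gene called was Car13, a cytosolic form. It read 5.48, 5.04 and 5.08 in sham at day 1, 4.93 and 5.49 at day 3, and 5.43, 5.07, 5.06 and 5.50 at day 7. BDL arrays read 5.54, 5.35, 5.54, 5.38 and 5.23 at day 1, 6.09, 5.89, 5.68, 5.94 and 5.69 at day 3, 6.20, 5.85, 6.20, 6.19 and 6.17 at day 7 and 5.76, 5.88, 5.85, 6.49 and 6.02 at day 21. From day 3 on, the BDL arrays lie above all sham arrays.

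Car13 differed from sham by 0.21 ± 0.16 at day 1 (adjusted p = 0.443) and rose by 0.65 ± 0.18 at day 3 (adjusted p = 0.0185), 0.86 ± 0.14 at day 7 (adjusted p = 6.67e-05) and 0.74 ± 0.14 at day 21 (adjusted p = 0.000276). The day 3 call was lost without sham day 3 replicate 1 and in a fit of only the arrays compared (adjusted p up to 0.426). In the RefSeq gene table of assembly GRCm38.p6, Car13, Car1, Car3 and Car2 follow one another with no other protein-coding gene between them. Within this run of 4 genes, at day 7 Car13 was called higher, Car1 was called lower, Car2 did not pass and Car3 was 4.08-fold lower.

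Bicarbonate transporters were read as a list of 19 genes, of which 18 had a row and 11 were tested. The genes tested are of the Slc4 and Slc26 families, and whether each carries bicarbonate was not tested. In BDL livers 1 was higher and 2 lower at day 1, 0 and 1 at day 3, 1 and 0 at day 7, and 2 and 1 at day 21, with median differences of 0.05, 0.05, 0.16 and 0.05. Over all genes tested, 8.52%, 6.47%, 14.2% and 17.3% were called higher at these days. The shares called lower were 4.8%, 3.69%, 4.97% and 7.9%, and the medians over all genes were 0.02 to 0.03. The same shares and medians stand beside the counts of the lists that follow. Slc4a4, a sodium bicarbonate cotransporter, rose at day 1 (0.68 ± 0.15, adjusted p = 0.00298), day 7 (0.78 ± 0.14, adjusted p = 0.000141) and day 21 (0.86 ± 0.14, adjusted p = 2.83e-05), and was 0.41 ± 0.17 at day 3 (adjusted p = 0.151). Slc26a10 fell at day 1 (-0.89 ± 0.21, adjusted p = 0.00531) and rose from BDL day 3 to day 7 (1.02 ± 0.18, adjusted p = 0.00116). Both day 1 calls were lost without the low-spread arrays, at an adjusted p of 0.0560 for Slc4a4 and 0.125 for Slc26a10.

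Enzymes that use bicarbonate as a substrate, 8 listed and 7 tested, gave 1 higher and 3 lower at day 1, and 0 higher with 2, 2 and 4 lower at days 3, 7 and 21. Their median differences were -0.41, -0.36, -0.21 and -0.29. Not all went down: Cps1 was -0.11 ± 0.12, 0.16 ± 0.14, 0.24 ± 0.11 and 0.28 ± 0.11 at these days, with no call. From BDL day 1 to day 3 Cps1 rose by 0.58 ± 0.10 (adjusted p = 0.000386 in limma's test). Mccc2, a subunit of the mitochondrial carboxylase of leucine breakdown, fell at each time, by -0.49 ± 0.10 at day 1 (adjusted p = 0.000734), -0.49 ± 0.11 at day 3 (adjusted p = 0.00370), -0.45 ± 0.09 at day 7 (adjusted p = 0.000422) and -0.49 ± 0.09 at day 21 (adjusted p = 0.000105). Its day 1 call was lost without the low-spread arrays (adjusted p = 0.0851), and its day 3 call without sham day 3 replicate 1 and in a fit of only the arrays compared (adjusted p up to 0.138).

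Pccb, a subunit of propionyl-CoA carboxylase, fell by -0.42 ± 0.11 at day 3 (adjusted p = 0.0157) and -0.40 ± 0.09 at day 7 (adjusted p = 0.00231). Its day 3 call was lost in the same pair of settings as that of Mccc2 (adjusted p up to 0.256). Acaca, the cytosolic acetyl-CoA carboxylase of fatty acid synthesis, rose at day 1 by 0.64 ± 0.16 (adjusted p = 0.00786), a call lost without sham day 1 replicate 1, without the low-spread arrays or in a fit of only the arrays compared (adjusted p up to 0.318). Acacb, the form at the mitochondrial surface, was lower at day 21 (-0.98 ± 0.24, adjusted p = 0.00233).

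Genes of bicarbonate secretion by bile duct cells, 8 listed and 7 tested, were called higher in 0, 2, 3 and 3 cases at days 1, 3, 7 and 21 and never lower (at day 1 also 0 of 7 at an unadjusted p under 0.05). The medians were -0.05, 0.13, 0.52 and 0.49. Cftr, the chloride channel of the duct cell's luminal membrane, rose by 0.89 ± 0.16 at day 7 (adjusted p = 0.000152) and 1.24 ± 0.16 at day 21 (adjusted p = 8.84e-07). Its sham and BDL means were 3.68 and 4.29 at day 3 and 4.05 and 4.94 at day 7, all under the filter level of 5. Only BDL day 21, at 5.29, was above it, so the sizes of the Cftr differences depend on the background. Ano1, a calcium-activated chloride channel, rose by 0.59 ± 0.15 at day 7 (adjusted p = 0.00592) and 0.61 ± 0.15 at day 21 (adjusted p = 0.00339). Itpr3, the inositol trisphosphate receptor of the duct cell's apical pole, was the third gene called at days 7 (0.60 ± 0.11, adjusted p = 0.000197) and 21 (0.82 ± 0.11, adjusted p = 1.34e-06), but with the mean of its rows it was 0.19 (adjusted p = 0.325) and 0.24 (adjusted p = 0.182). The 2 genes called at day 3 were Cftr (0.61 ± 0.20, adjusted p = 0.0488) and Itpr3 (0.46 ± 0.14, adjusted p = 0.0282). The Cftr call was lost in 9 of 14 settings. These included no filter, trend and robust variance, all sham arrays as control, and leaving out BDL day 3 replicate 1, 2, 3 or 4. The Itpr3 call was lost in 6 of 15, among them the mean of its rows and leaving out BDL day 3 replicate 4 or 5. Both calls were also lost without either sham array of day 3, which leaves 1 sham array there. The cholangiocyte list, of which Cftr is also a member, was higher in the same livers, as given beside Car2.

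The 8 genes whose course was most like that of Car3, by Pearson's r over the 29 arrays, were Inmt (0.968), Serpina6 (0.957), Ces1e (0.949), Rgn (0.932), Acsm5 (0.925), Cyp2c54 (0.925), Acaa1b (0.924) and Ces1f (0.922). These r values mix differences between the 7 groups with those inside them, and the arrays share groups and normalization. With each group's mean taken out, r lay between 0.664 (Cyp2c54) and 0.832 (Inmt). Ces1e, Ces1f and Cyp2c54 have close relatives of very similar sequence, which their rows may read as well.

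Inmt, an N-methyltransferase of small amines, read 9.68 to 10.75 in sham at day 1, 10.29 and 10.76 at day 3, and 10.62 to 11.34 at day 7. It ran from 5.63 to 7.66 at BDL day 1, 5.36 to 9.25 at day 3, 8.78 to 9.64 at day 7 and 7.76 to 9.14 at day 21. Like Car3, its BDL arrays lay below the sham arrays at every day, with differences of -3.68 ± 0.57, -3.72 ± 0.65, -1.58 ± 0.52 and -2.17 ± 0.52. The step from BDL day 3 to day 7 was 2.50 ± 0.49.

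Serpina6, the plasma carrier of glucocorticoids, differed by -3.93 ± 0.60, -3.40 ± 0.69, -0.92 ± 0.55 and -1.82 ± 0.55 at days 1, 3, 7 and 21. Rgn, the calcium-binding protein regucalcin, differed by -1.53 ± 0.31, -1.66 ± 0.35, -0.45 ± 0.28 and -1.08 ± 0.28. Acsm5, a medium-chain acyl-CoA synthetase, differed by -1.34 ± 0.24, -1.27 ± 0.27, -0.12 ± 0.22 and -0.61 ± 0.22. In 7 of the 8 genes, as in Car3, the day 7 difference was the nearest to 0. The exception was Cyp2c54, with -1.45 ± 0.38 at day 7 and -1.29 ± 0.38 at day 21. In Ces1e the values were close, at -1.21 ± 0.30 at day 7 and -1.34 ± 0.30 at day 21. Since the 8 genes were chosen by their r to Car3, a like course over the groups comes with the choice and is no separate result.

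The arrays of BDL day 3 also stood in a like order. Replicate 2, the highest in Car3, was the highest of its group in all 8 genes, for example at 9.25 in Inmt, where the others read 7.62, 6.34, 5.36 and 5.45. In Serpina6 it was at 10.07, where the others read 8.31, 6.59, 6.30 and 5.36. The genes were picked for following Car3 over these same arrays, so this agreement is part of the choice and not a separate result.

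**Figure D4:**
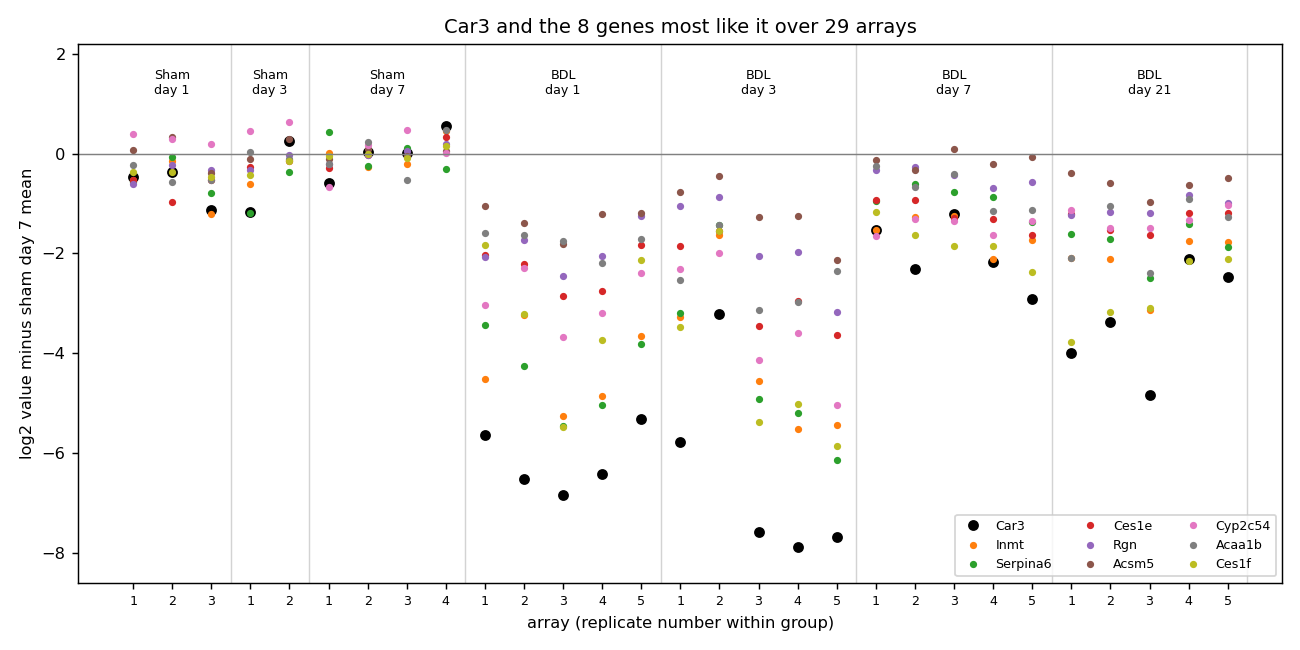
Log2 value minus the mean of sham day 7 for Car3 and the 8 genes most like it, in each of the 29 arrays; the horizontal axis gives the array by its replicate number within its group. Each point is 1 gene in 1 array, Car3 in black; the points are lowest at BDL days 1 and 3, with replicate 2 of day 3 above the rest of its group (Car3 at 9.52 on the log2 scale), and are nearer to 0 at day 7.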

How the data were processed

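Values are the log2 expression levels the authors deposited, made with oligo 1.52.0 and RMA (background subtraction, a shared distribution, probe summary), per the submitters' processing notes. Gene names came from the annotation of Mouse Gene 2.0 ST, which the row identifiers match, although the labels' protocols speak of a Mouse Genome array of another design. Of 41345 rows 23521 had 1 symbol and 1814 several; symbols were updated through RefSeq (GRCm38.p6), and the row of highest mean was kept per gene. No coordinates are printed, the authors' build being not given in the sources here. Genes above log2 5 in at least 3 arrays (14699) entered limma 3.58.1 (R 4.3.3; lmFit, eBayes) with 1 mean per group over all 29 arrays; p-values are two-sided and Benjamini-Hochberg adjusted over these genes, with a threshold of 0.05. The p-values set a difference of group means against the spread between arrays within groups, with 1 array per mouse as far as the labels tell. Differences are group means of log2 values, first minus second, ± SE. The procedure was tested on simulated data.

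The members and gene lists were chosen with earlier results of these data known. Genes most like Car3 were the 8 of highest Pearson's r among genes tested; in the lists, genes were named for their calls. Car5a and Car14 were to be tested but have only shared rows. Sequences of the members are not printed. Alternatives were other filters, row means, scalings, variance settings, sets of arrays, the low-spread arrays as a term, all sham arrays as control, and leaving out each array. The number of arrays limits the precision.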

Additional observations from a re-analysis of the deposited data

Results flagged for a closer look

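The effect of ligation on Car2 differed between days: BDL minus sham was -0.83 ± 0.22 at day 1 and 0.34 ± 0.20 at day 7, and the later effect exceeded the earlier one by 1.17 ± 0.29 (limma, adjusted p = 0.0203). All 5 BDL arrays of day 1 lay below all 3 sham arrays, while at day 7 the groups overlapped. The difference between days was 1.02 (adjusted p = 0.0544) without sham day 1 replicate 2. It was 1.28 (adjusted p = 0.0835) without the low-spread arrays. No array of Car1, Car2, Car3 or Car8 stood far from the others of its group by Dixon's criterion in the 20 groups of 4 or 5 arrays checked.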

How the results depend on the processing

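No value of Car1, Car2 or Car8 called in a comparison changed sign under the alternatives run. Car3 carried no test, and 2 of its small differences changed sign when 1 array was left out. BDL day 3 minus BDL day 1 ran from -1.08 to 0.08, and sham day 3 minus sham day 7 from -1.17 to 0.25. Of the 3 members other than Car3, the number called at BDL day 21 against sham day 7 went from 2 to 1 without a filter (Car2, adjusted p = 0.0605) and with cyclic loess scaling (adjusted p = 0.0695). It went from 2 to 1 at day 1 in a fit of only the arrays compared (Car2, adjusted p = 0.0668) and without the low-spread arrays. Sham day 1 against sham day 7 went from 1 to 0 in both of these settings and with the low-spread arrays as a term. From BDL day 1 to day 3 it went from 1 to 0 with that term and without those arrays (Car2, adjusted p = 0.0844), and the effect at day 7 minus that at day 1 went from 1 to 0 without them. With all sham arrays as control it went from 1 to 2 at day 3 (Car8, adjusted p = 0.0350). Leaving out 1 array at a time gave 1 to 2 calls at day 1 and at day 21, 0 to 2 from BDL day 3 to day 7 (2 without BDL day 3 replicate 2, where Car8 had an adjusted p of 0.0318), 0 to 1 for sham day 1 against sham day 7 and 0 to 1 for the difference of effects.

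For Car3, leaving out 1 array gave -5.73 to -5.31 at day 1, -6.77 to -5.25 at day 3, -2.23 to -1.81 at day 7 and -3.67 to -2.99 at day 21. The mean of its rows gave -5.33, -5.68, -2.41 and -3.38. No paired analysis was possible because the labels give animal numbers but no replicate numbers shared between groups. With 2 sham arrays at day 3, values there are the least precise, and levels near 5 are not told apart from background.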
